A study of Ovis aries with 8 samples.

Results

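The circadian clock genes PER1, PER2, PER3, CRY1, CRY2, CIART, CLOCK, NR1D1, NR1D2 and DBP were examined in the mediobasal hypothalamus of food-restricted and well-fed ewes. The 10 genes were chosen by symbol from the 33609 genes listed, each had 1 row, and all 10 were among the 18193 genes with enough reads to be tested. The animals were adult Ile-de-France ewes, either fed ad lib (well-fed) or kept on restricted food, with 30 ewes per group in each of 2 consecutive years. RNA from the 60 ewes of a group was mixed into 4 sequencing pools of 15 ewes, so that n counts pools, and p-values measure the spread between such mixes. The degree and duration of the restriction, the year of a pool and the hour at which tissue was taken are not stated in the labels. Because the RNA came from a block of tissue, fewer cells of a type and less RNA per cell cannot be told apart.

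The circadian clock is a feedback loop of transcription found in most cells. The proteins CLOCK and BMAL1 (gene symbol ARNTL) bind E-box sequences together and activate the PER, CRY, NR1D, DBP and CIART genes. PER and CRY proteins then repress CLOCK and BMAL1, while NR1D proteins repress ARNTL, so that ARNTL usually peaks when PER, NR1D and DBP transcripts are low. The suprachiasmatic nucleus of the anterior hypothalamus is the light-set pacemaker, and the arcuate nucleus in the mediobasal hypothalamus has rhythms of its own that feeding is known to shift.

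No difference between food-restricted and well-fed pools was called for any of the 10 clock genes. The log2 fold change was smaller than the pooled within-group SD of log2 CPM in each of them but CIART (-0.29 against 0.16). The edgeR quasi-likelihood test called 0 of the 10 (adjusted p = 1 for each), beside 1 of 18193 genes over the whole table (0.0055%, all of it higher), which was AGRP. At an unadjusted edgeR p under 0.05 the count was again 0 of 10, beside 309 of all genes (1.7%). The groups overlapped in all 10 clock genes, whereas they did not overlap in 291 of all genes tested (1.6%). Of the 10, 6 were higher and 4 lower in the food-restricted pools, with a median log2 fold change of 0.02 and a range from -0.29 to 0.17. The median over all genes was 0.01. Values are in CPM, read counts relative to the library size after TMM scaling, and fold changes are food-restricted over well-fed.

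**Figure D1:**
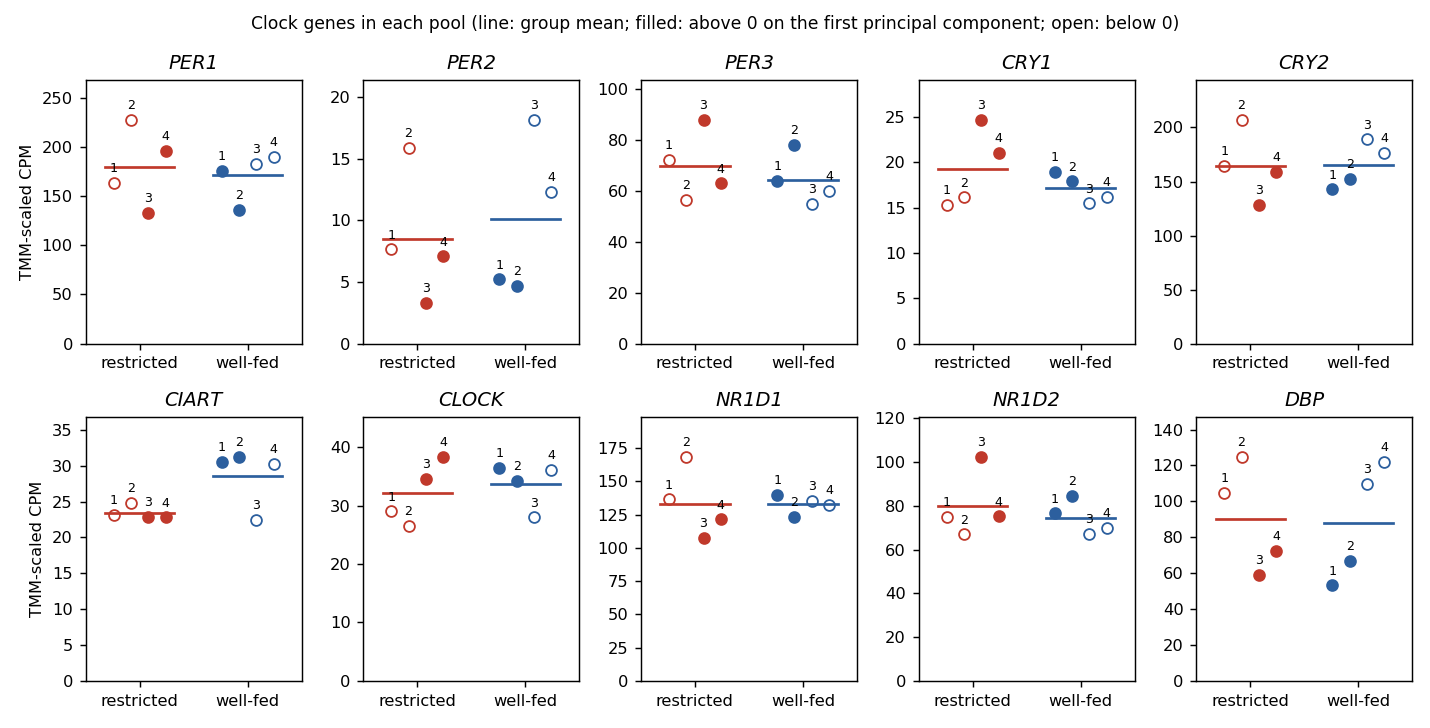
CPM of each clock gene (y axis, from 0) in the 4 food-restricted (red) and 4 well-fed (blue) pools, numbered as in the labels, with a line at the group mean; filled points are the 4 pools on the upper side (above 0) of the first principal component of all genes and open points the other 4. The groups overlap in every panel, and in PER2, DBP, CRY1, CRY2 and NR1D2 the filled and open points do not.

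The period genes encode the repressors whose build-up closes the loop. PER1 (gene ID 100174984), which also responds within a short time to light, neuronal activity and glucocorticoids, was at 164, 228, 133 and 196 CPM in food-restricted pools 1 to 4 and at 176, 136, 183 and 190 CPM in well-fed pools 1 to 4. The lowest and the highest pool were both food-restricted, and the well-fed pools lay between them. PER1 averaged 180 ± 41.0 CPM against 171 ± 24.1 CPM (SD, n = 4 each). The log2 fold change was 0.07 (SE 0.17), for which the 95% interval of the edgeR fit ran from 0.81-fold to 1.36-fold.

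PER2 (gene ID 443259), whose protein's stability helps set the pace of the clock, was the least steady of the 10 genes. It was at 7.63, 15.9, 3.27 and 7.07 CPM in the food-restricted pools and at 5.21, 4.65, 18.1 and 12.3 CPM in the well-fed pools. Each group thus held low and high pools, and the highest pool was 5.55 times the lowest. The lowest pool had 140 PER2 reads and the highest 870. The means were 8.45 ± 5.30 and 10.1 ± 6.40 CPM (SD, n = 4 each). The log2 fold change was -0.25 (SE 0.51), with a 95% interval from 0.38-fold to 1.84-fold. Any change of PER2 within that interval is compatible with these pools, and the smallest change that could have been detected was not determined.

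PER3 (gene ID 100125623), a period gene with a weaker role in keeping rhythm, was at 72.0, 56.6, 87.9 and 62.9 CPM in food-restricted pools and at 64.0, 78.0, 54.8 and 59.9 CPM in well-fed pools. Its highest pool was food-restricted pool 3, in which PER1 and PER2 were at their lowest. The means of PER3 were 69.9 ± 13.6 and 64.2 ± 9.96 CPM (SD, n = 4 each), for a fitted log2 difference of 0.12 (SE 0.16; 95% interval 0.85-fold to 1.39-fold).

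The cryptochromes are the strongest repressors of CLOCK and BMAL1. CRY1 (gene ID 443263), which melatonin is known to induce in the pars tuberalis of sheep, was at 15.3, 16.1, 24.7 and 21.0 CPM with food restriction and at 18.9, 17.9, 15.4 and 16.2 CPM in well-fed pools. The pair of highest pools were both food-restricted, but the lowest was food-restricted as well. CRY1 averaged 19.3 ± 4.38 against 17.1 ± 1.59 CPM (SD, n = 4 each), for a fitted log2 difference of 0.17 (SE 0.17; 95% interval 0.86-fold to 1.47-fold). CRY2 (gene ID 100169934) was at 164, 207, 128 and 159 CPM in food-restricted pools and at 143, 153, 189 and 177 CPM in well-fed pools. Its group means were nearly equal, 165 ± 32.4 and 165 ± 21.2 CPM (SD, n = 4 each), and the log2 fold change was -0.01 (SE 0.15; 95% interval 0.79-fold to 1.26-fold). In a RefSeq gene table of a sheep assembly that may differ from the one used for counting, CRY1 overlaps MTERF2 and a pair of uncharacterised genes. The strand setting of the read counting is not stated in the labels, so that reads of overlapping genes may not be told apart.

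CIART (gene ID 101116794), a repressor of CLOCK and BMAL1 also called CHRONO, had the smallest p of the 10. It was at 23.2, 24.8, 22.8 and 22.8 CPM in the food-restricted pools and at 30.5, 31.2, 22.5 and 30.2 CPM in the well-fed pools. Of the well-fed pools 3 lay above every food-restricted pool, and well-fed pool 3 lay below them all. The means were 23.4 ± 0.940 and 28.6 ± 4.10 CPM (SD, n = 4 each). The log2 fold change was -0.29 (SE 0.13) or 0.82-fold, with a 95% interval from 0.67-fold to 1.01-fold. The edgeR test gave p = 0.0555 (adjusted p = 1) and an exact two-sided permutation test of log2 CPM p = 0.143, where 4 pools against 4 cannot give less than 0.0286. Without well-fed pool 3 the log2 fold change of CIART was -0.37 (SE 0.12, edgeR adjusted p = 1), and its unadjusted p was under 0.05. With any other single pool left out, the unadjusted edgeR p of CIART was not under 0.05. CIART overlaps C1H1orf54 in the RefSeq table.

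CLOCK (gene ID 100171391), the activator of the set, was at 29.0, 26.6, 34.6 and 38.3 CPM in food-restricted pools and at 36.4, 34.2, 28.0 and 36.2 CPM in well-fed pools. Food-restricted pools 1 and 2 and well-fed pool 3 formed a lower cluster from 26.6 to 29.0 CPM, and the other 5 pools lay between 34.2 and 38.3 CPM. The means were 32.1 ± 5.31 and 33.7 ± 3.94 CPM (SD, n = 4 each), for a fitted log2 difference of -0.07 (SE 0.15; 95% interval 0.76-fold to 1.20-fold).

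NR1D1 and NR1D2 encode REV-ERB alpha and beta, nuclear receptors for heme that repress ARNTL. NR1D1 (gene ID 100174903) was at 136, 168, 108 and 121 CPM in food-restricted pools and at 140, 123, 135 and 132 CPM in well-fed pools. Food-restricted pools 2 and 3 were again the highest and the lowest. The means were 133 ± 25.9 and 133 ± 7.04 CPM (SD, n = 4 each), for a fitted log2 difference of 0.01 (SE 0.14; 95% interval 0.81-fold to 1.24-fold). NR1D1 overlaps THRA, the thyroid hormone receptor alpha gene, and the same pair of pools was highest (407 CPM) and lowest (303 CPM) for THRA. NR1D2 (gene ID 101103536) was at 75.0, 67.0, 102 and 75.2 CPM in food-restricted pools and at 76.5, 84.7, 67.1 and 70.1 CPM in well-fed pools. Its highest pool was food-restricted pool 3, the lowest for NR1D1. NR1D2 averaged 79.8 ± 15.4 against 74.6 ± 7.79 CPM (SD, n = 4 each), for a fitted log2 difference of 0.10 (SE 0.15; 95% interval 0.86-fold to 1.34-fold).

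DBP (gene ID 100192428), a transcription factor of D-box sequences and among the most rhythmic transcripts of the clock, was at 105, 125, 58.8 and 72.4 CPM in food-restricted pools and at 53.2, 66.7, 110 and 122 CPM in well-fed pools. In each group 2 pools lay between 53.2 and 72.4 CPM and 2 between 105 and 125 CPM, with none in between. The group means were 90.1 ± 29.9 and 87.9 ± 33.1 CPM (SD, n = 4 each), for a fitted log2 difference of 0.04 (SE 0.29; 95% interval 0.65-fold to 1.61-fold).

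**Figure D2:**
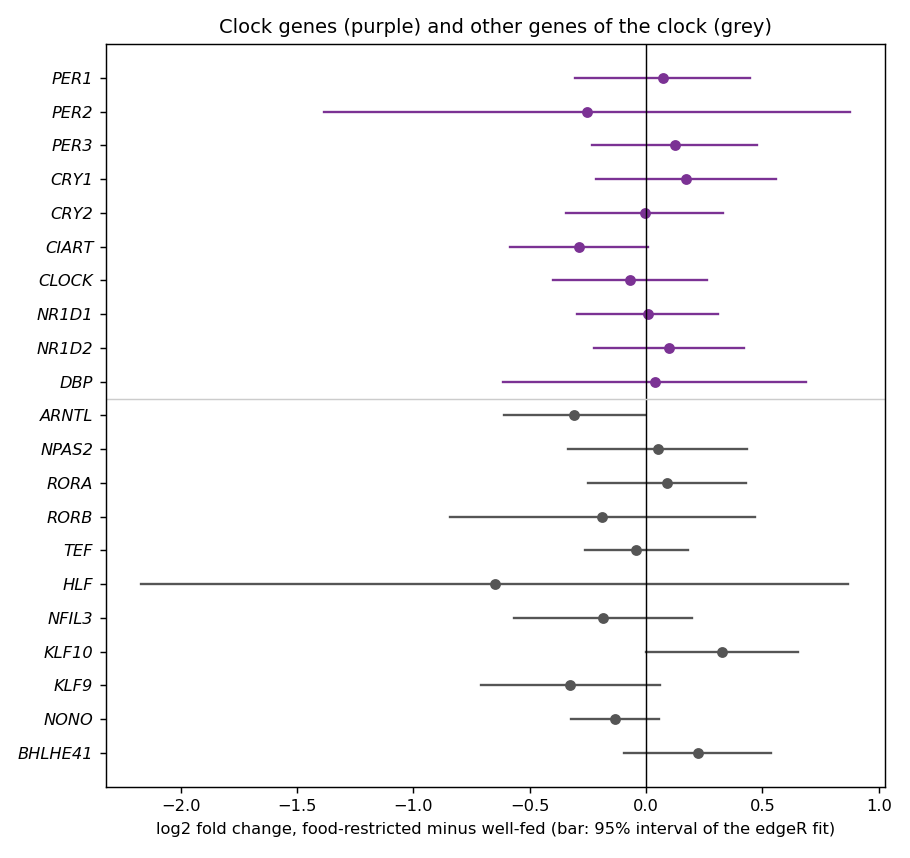
Log2 fold change, food-restricted minus well-fed (x axis), of the 10 clock genes (purple) and 11 other genes of the clock (grey); points are estimates and bars 95% intervals of the edgeR fit. The intervals of all 10 clock genes include 0, CIART's only just (-0.59 to 0.01), and PER2 has the widest of them (-1.38 to 0.88).

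The genes differed in how far pools of 1 group lay apart. The pooled within-group SD of log2 CPM was 0.94 for PER2 (percentile 90.9 among all genes tested) and 0.53 for DBP (percentile 77.0). It was lowest for CIART, at 0.16 (percentile 19.5). The other 7 genes lay between 0.20 and 0.28, and the median over the 10 genes was 0.24 beside 0.27 over all genes.

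PER, DBP and NR1D transcripts are known to vary with the hour of the day, more than CLOCK does, so each gene was also set against CLOCK within its pool. Such a ratio hardly depends on the scaling of the library. The difference between groups in log2(gene/CLOCK) lay between -0.20 (CIART) and 0.22 (CRY1) for the 9 genes. None of the 9 ratios passed an exact two-sided permutation test (adjusted p between 0.707 and 0.857 over the 9), and the smallest unadjusted p was 0.0857, for CRY1 (exact permutation test, n = 4 each). As 4 pools against 4 cannot give a permutation p under 0.0286, a ratio could not have passed alone after adjustment over the 9. The outcome therefore does not show that the ratios were equal. The mean log2 CPM of PER1, PER2, PER3, DBP, NR1D1 and NR1D2 minus that of CLOCK was 1.22, 1.61, 0.64 and 0.70 in food-restricted pools 1 to 4. It was 0.64, 0.74, 1.43 and 1.02 in well-fed pools 1 to 4. Each group held both ends of the range, and the group means were 1.04 ± 0.46 and 0.96 ± 0.35 (SD, n = 4 each), a difference of 0.09 that is smaller than the spread between pools of a group. As a score over chosen genes it was given no p. With ARNTL in place of CLOCK the difference was 0.32, and with NPAS2 it was -0.06. Single pools moved it on both sides of 0. It was -0.10 without food-restricted pool 2, -0.02 without well-fed pool 1, 0.03 without food-restricted pool 1 and 0.01 without well-fed pool 2. It was 0.22 without food-restricted pool 3, 0.20 without food-restricted pool 4 and 0.24 without well-fed pool 3.

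**Figure D3:**
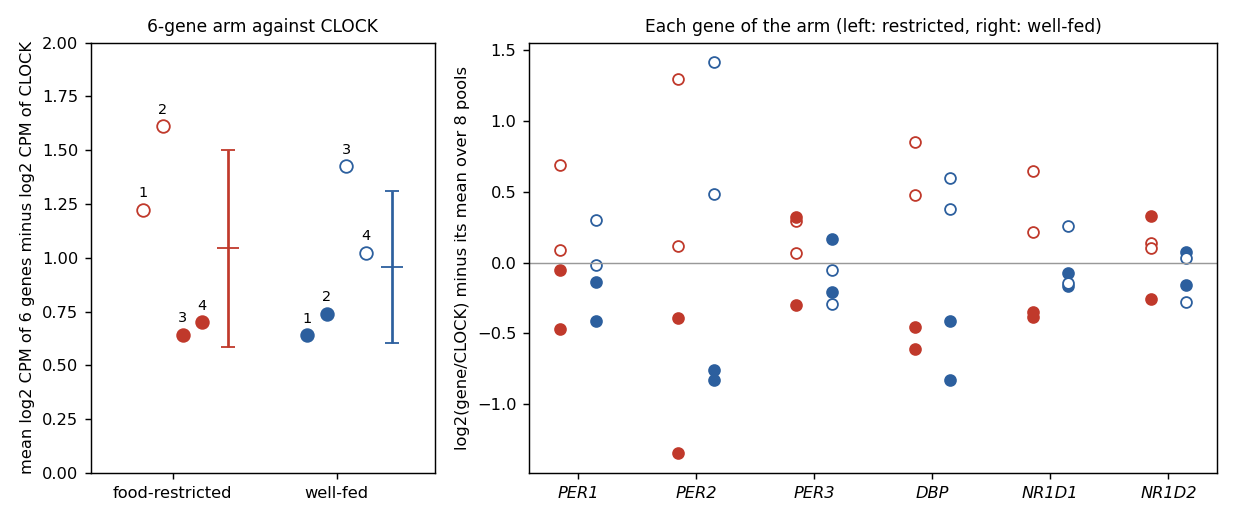
Left, mean log2 CPM of PER1, PER2, PER3, DBP, NR1D1 and NR1D2 minus log2 CPM of CLOCK in each numbered pool, with group mean ± SD (bars); right, log2 ratio of each gene to CLOCK minus its mean over 8 pools, with filled points above and open points below 0 on the first principal component. On the left both groups span nearly the same range (0.64 to 1.61 and 0.64 to 1.43); on the right PER1, PER2 and DBP have filled and open points apart, and PER3, NR1D1 and NR1D2 do not.

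These 6 genes did not vary over the pools as 1 unit. PER1, PER2, NR1D1 and DBP were at or near their highest in food-restricted pool 2, where PER3 and NR1D2 were at or near their lowest. In food-restricted pool 3, PER1, PER2 and NR1D1 were at their lowest and PER3 and NR1D2 at their highest. Pearson's r and Spearman's rho were computed for the 21 pairs of the 7 genes PER1, PER2, PER3, CRY1, CRY2, NR1D1 and NR1D2. CLOCK, DBP and CIART were set aside, because their pools parted into 2 clusters of at least 2 pools each. An r over both clusters would rest on the gap between them. In NR1D1 and NR1D2 a gap about as wide set 1 pool apart, and these were kept. Over the 8 pools 19 of the 21 pairs passed by r and 7 by both r and rho (exact permutation tests, adjusted over the 21), of which 2 were positive and 5 negative. These tests took no account of the sides of the first principal component, between which PER2, CRY1, CRY2 and NR1D2 did not overlap. With the mean of each side removed, r of the 19 pairs was between 0.24 and 0.93 in size. For the 19 pairs, between 1.24% and 37.5% of all genes tested had an r at least as far from 0 with a gene of the pair.

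PER2 and CRY2 were higher and lower in the same pools (r = 0.96, adjusted p = 0.00243; rho = 0.95, adjusted p = 0.00799; exact permutation tests, n = 8). So were PER3 and NR1D2 (r = 0.95, adjusted p = 0.00243; rho = 0.90, adjusted p = 0.0192; exact permutation tests). PER2 and NR1D2 went opposite ways (r = -0.91, adjusted p = 0.00104; rho = -0.98, adjusted p = 0.00417; exact permutation tests). The remaining 4 pairs were PER1 with PER3 (r = -0.90), PER2 with PER3 (-0.90), PER3 with CRY2 (-0.82) and CRY2 with NR1D2 (-0.89). Their adjusted p was 0.0102, 0.0108, 0.0301 and 0.00938 for r and 0.0461, 0.0117, 0.0375 and 0.00417 for rho in exact permutation tests. Leaving out the 2 pools farthest from the median of the first gene gave r of 0.94 for PER2 with CRY2, 0.84 for PER3 with NR1D2 and -0.94 for PER2 with NR1D2. It gave -0.67, -0.78, -0.67 and -0.81 for the other 4 in that order. Without food-restricted pool 3 alone, 3 of the 21 pairs passed by r, and the count was 12 without food-restricted pool 2 or without well-fed pool 2, 8 without well-fed pool 3 and 7 without well-fed pool 4. The sign of r was the same for all 19 pairs whichever pool was left out.

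How common such values were in these libraries differed between the pairs. An r at least as far from 0 as that of PER2 with CRY2 was met between PER2 and 2.42% of all genes tested, and for PER2 with NR1D2 the share was 9.22%. For PER3 with NR1D2 it was 1.24% of all genes against PER3, and for PER1 with PER3 it was 1.36% against PER1. The share was 11.4% for PER2 with PER3 (against PER2), 13.1% for PER3 with CRY2 (against PER3) and 12.1% for CRY2 with NR1D2 (against CRY2). Against the second gene of each of these 7 pairs it ran from 1.28% (PER3 with NR1D2) to 22.7% (PER3 with CRY2). The labels do not say which year or preparation the pools share.

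**Figure D4:**
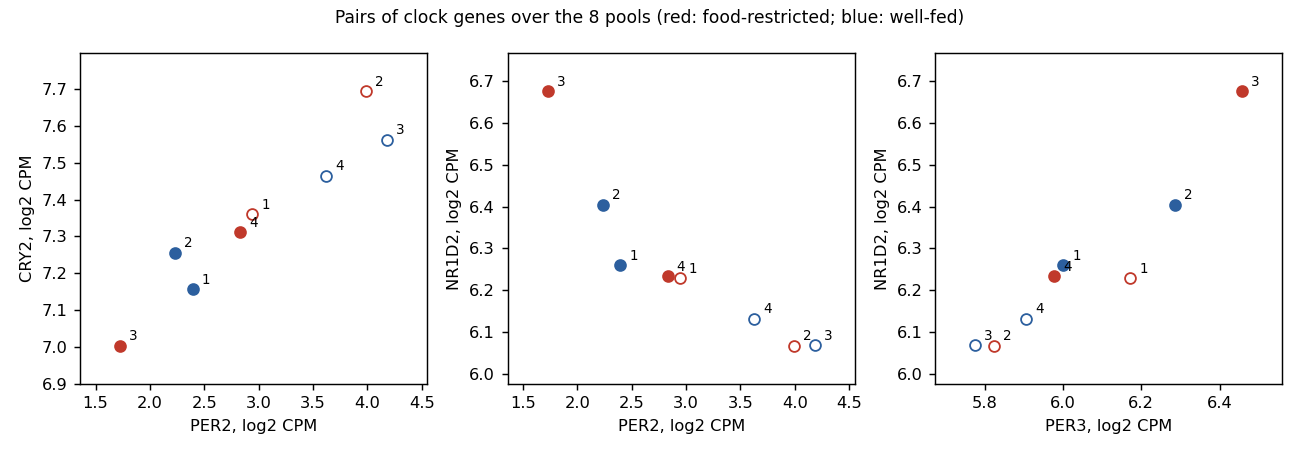
Log2 CPM of CRY2 against PER2, NR1D2 against PER2 and NR1D2 against PER3 in the 8 pools, numbered within food-restricted (red) and well-fed (blue) groups, filled above and open below 0 on the first principal component. The points run upward for PER2 with CRY2 (r = 0.96) and PER3 with NR1D2 (r = 0.95) and downward for PER2 with NR1D2 (r = -0.91), with both colours along each line.

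The first principal component of log2 CPM over all genes held 34.7% of the variance and cut across the groups. Food-restricted pools 3 and 4 and well-fed pools 1 and 2 lay above 0 and the other 4 below it, also when the clock genes were left out. In 5 of the 10 clock genes these 4 and 4 pools did not overlap, beside 23.1% of all genes tested. The sides were drawn from the same libraries, so this is a description only. DBP was between 53.2 and 72.4 CPM in the 4 pools above 0 and between 105 and 125 CPM in those below. PER2 was between 3.27 and 7.07 CPM above and between 7.63 and 18.1 CPM below, and CRY2 between 128 and 159 CPM above and between 164 and 207 CPM below. CRY1 was between 17.9 and 24.7 CPM above and between 15.3 and 16.2 CPM below, and NR1D2 between 75.2 and 102 CPM above and between 67.0 and 75.0 CPM below. DBP, PER2 and CRY2 were thus low where CRY1 and NR1D2 were high. PER2, CRY2, CRY1 and NR1D2 were among the 7 genes correlated above, and those permutation tests took no account of the sides. With the mean of each side removed, r of all 19 pairs that passed kept its sign, at sizes between 0.24 and 0.93. It was -0.24 for PER2 with CRY1, 0.86 for PER2 with CRY2, 0.93 for PER3 with NR1D2 and -0.83 for PER2 with NR1D2.

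**Figure D5:**
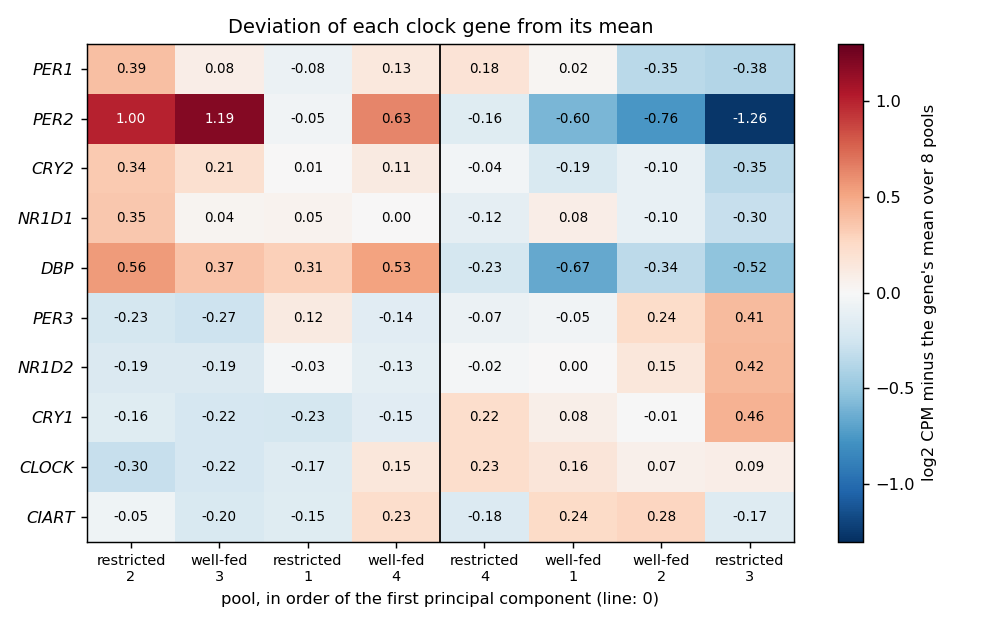
Log2 CPM of each clock gene minus its mean over the 8 pools (colour and number), with pools ordered by the first principal component and a line at 0. PER2 runs from 1.19 in well-fed pool 3 to -1.26 in food-restricted pool 3 and DBP changes sign at the line, while PER3, NR1D2 and CRY1 are highest in food-restricted pool 3.

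Within each side the groups were compared again. Food-restricted over well-fed, DBP was 1.10-fold among the pools above 0 and 0.99-fold among those below, and CRY2 0.97-fold and 1.01-fold. PER1 was 1.04-fold on both sides. PER2 was 0.98-fold above and 0.74-fold below, CIART 0.74-fold above and 0.92-fold below, and NR1D1 0.87-fold above and 1.13-fold below, with 2 pools against 2 in each case and hence no test within a side. With the side as a block, edgeR called 0 of the 10 clock genes and 6 genes in all, and CIART had a log2 fold change of -0.28 (SE 0.13, edgeR adjusted p = 0.991, unadjusted p under 0.05). Markers listed for the suprachiasmatic nucleus were read as well, and how specific they are to it in this tissue was not tested. The summed CPM of the 11 tested markers of 12 listed was between 93.2 and 141 in the pools above 0 and between 204 and 329 in those below. It was between 102 and 329 in food-restricted and between 93.2 and 291 in well-fed pools. AVP alone, the most abundant of them, was between 26.4 and 236 CPM over the pools. Of the 11, 3 (AVP, SIX6 and LHX1) did not overlap between the sides and 8 did, a share near the 23.1% of all genes. PROK2, the listed marker that was not tested, had a row but too few reads. VIP, the defining peptide of the core of the nucleus, was near 0, between 0 and 0.546 CPM in food-restricted and between 0.154 and 0.676 CPM in well-fed pools. The part of these cells in the clock gene values was not tested.

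Of the other genes of the clock, 30 of 32 listed had a row and were tested, 0 were called over all genes, and at an unadjusted edgeR p under 0.05 there was 1 in each direction. Background for those counts was 0.671% of genes higher and 1.03% lower. In all 13 were higher and 17 lower, with a median log2 fold change of -0.07. ARNTL, which encodes BMAL1, was at 15.4, 17.9, 17.2 and 19.8 CPM in food-restricted pools and at 21.7, 19.3, 21.2 and 24.8 CPM in well-fed pools. The groups overlapped by 1 pool each, and the log2 fold change of ARNTL was -0.31 (SE 0.14, edgeR p = 0.0467, adjusted p = 1; exact permutation p = 0.0571). KLF10, a zinc finger factor under clock control, was the gene on the other side, at 26.9 ± 3.37 against 21.5 ± 3.01 CPM (SD, n = 4 each; log2 fold change 0.33, SE 0.15, edgeR adjusted p = 1).

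NPAS2, which can stand in for CLOCK in the brain, was at 23.0 ± 2.85 against 22.2 ± 4.74 CPM (SD, n = 4 each; log2 fold change 0.05, SE 0.17). RORA and RORB, receptors that activate ARNTL where NR1D proteins repress it, had log2 fold changes of 0.09 (SE 0.15) and -0.19 (SE 0.30). Of the D-box factors, TEF stood at -0.04 (SE 0.10), HLF, at most 5.61 CPM in any pool, at -0.65 (SE 0.69), and the D-box repressor NFIL3 at -0.18 (SE 0.17). None of these 6 passed. KLF9, a clock output that glucocorticoids also induce, was at -0.33 (SE 0.17) and without food-restricted pool 3 at -0.52 (SE 0.13, edgeR adjusted p = 1), BHLHE41, a repressor at E-boxes, at 0.22 (SE 0.14), and NONO, a partner of PER proteins, at -0.13 (SE 0.09). NONO was between 168 and 179 CPM in food-restricted pools and between 186 and 196 CPM in well-fed pools, without overlap. The kinases and ubiquitin ligases that turn over PER and CRY proteins were among the remaining genes, none of which had an unadjusted p under 0.05.

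Over the 8 pools, the genes with the highest r to NR1D1 were COL2A1 (0.99), ZFYVE27 (0.96) and OPTC (0.96), of which OPTC was at 0.319 CPM on average. Those with the highest r to CLOCK were CD55 (0.95), SDR42E1 (0.93) and ZNF527 (0.93). These were picked as the top of 18193 genes and are given as a description.

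Glucocorticoids and neuronal activity act on PER1, and the genes they induce were read from the same fit. Of 11 tested glucocorticoid-induced genes 8 were lower and 3 higher, with a median log2 fold change of -0.33, and 4 were lower at an unadjusted edgeR p under 0.05, led by ZBTB16 (-0.77, SE 0.14) and FKBP5 (-0.65, SE 0.13), beside 1.03% of all genes. None was called over all genes. PER1 stood at 0.07. Of 10 activity-induced genes 6 were higher and 4 lower (median 0.05), with FOSB (-0.67, SE 0.15) and NR4A3 (-0.52, SE 0.14) lower at an unadjusted edgeR p under 0.05, beside the same 1.03%. The summed CPM of the 10 was between 232 and 339 on the upper side of the first principal component and between 354 and 425 on the lower side. Of the 10, 4 (JUNB, EGR2, NR4A1 and ARC) did not overlap between the sides, beside 23.1% of all genes. FOS, the most abundant of the 10, overlapped. The part of neuronal activity in the clock gene values was not tested. The labelled tissue carried its markers, with all 7 arcuate genes tested and AGRP at 155 ± 25.9 against 50.7 ± 10.1 CPM (SD, n = 4 each; edgeR adjusted p = 0.0296). With any 1 pool left out the edgeR adjusted p of AGRP was between 0.0706 and 0.215, at log2 fold changes between 1.49 and 1.73. NPY, made in the same neurons, had a log2 fold change of 1.24 (SE 0.35) and was not called. Total counts were between 36192025 and 48125991 per pool.

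Markers of other cells gave no call. The 8 tested pars tuberalis and pituitary genes had a median log2 fold change of -0.03, with EYA3 at 0.43 (SE 0.11). Their summed CPM was between 2485 and 3402 above 0 and between 3540 and 4422 below, against 3051 to 3701 in food-restricted and 2485 to 4422 in well-fed pools. Of the 8, 3 (CHGA, PITX1 and LHB) did not overlap between the sides, beside 23.1% of all genes. CHGA was the largest term of the sum, averaging 1886 CPM in food-restricted and 1928 CPM in well-fed pools. CGA, the next largest, overlapped between the sides. The part of pars tuberalis and pituitary cells in the clock gene values was not tested. The median was 0.06 for 6 neuron genes, 0.03 for 6 astrocyte genes, 0.10 for 6 oligodendrocyte genes, -0.03 for 5 microglia genes, -0.01 for 5 endothelial genes, 0.07 for 5 tanycyte and ependymal genes and -0.11 for 4 genes of meninges and fibroblasts, among them COL3A1 (-0.40, SE 0.14).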

How the data were processed

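Raw counts of reads per gene were deposited by the authors, with a column for each pool. Per the labels' protocols, RNA was extracted with TriReagent and libraries were made with a stranded TruSeq mRNA kit. Per the submitters' processing notes, the tools included featureCounts 2.0.0, TopHat2 2.1.1, SAMtools 1.9 and Bowtie2 2.3.5.1. Not given in the sources used here are the build, the annotation and the strand setting.

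The counts went into edgeR 4.0.16 (R 4.3.3): filterByExpr (minimum count 10, minimum total 15), TMM, and the quasi-likelihood test of food-restricted against well-fed pools with no covariate. P-values were adjusted by Benjamini-Hochberg over the 18193 genes kept, with a threshold of 0.05. SE is the absolute log2 fold change over the square root of F. Log2 CPM used a prior count of 2. Permutation tests are exact and two-sided. A count of 0 allows up to 3 counts, at most 0.0845 CPM in a pool, and such limits cover counting error only. A RefSeq table (ARS-UI_Ramb_v3.0) gave names and overlaps only, and held 28100 of the 33609 IDs.

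The clock genes, the other lists and the alternatives were chosen with earlier results of these data known. Named besides the 10 genes are AGRP, 7 of 8 loop partners (1 is not reported here) and the 4 remaining clock-related genes with the smallest p, the 3 genes most like NR1D1 and CLOCK, and up to 2 genes of each list with an unadjusted p under 0.05. THRA, MTERF2, C1H1orf54 and the suprachiasmatic markers were chosen with their values in view. The pairwise correlations between the 7 genes, and the rule that set CLOCK, DBP and CIART aside (a gap over 40% of the range with at least 2 pools on each side), were added after seeing the data; planned correlations with CLOCK are therefore not reported. Leaving single pools out of the ratios to CLOCK was added after seeing the data too. The edgeR fit was tried on simulated counts and the permutation test between groups on made-up values. The correlation tests, DESeq2 and limma voom were not tried in this way. Alternatives were other scalings and filters, the replicate number or the principal component side as a block, DESeq2 1.42.0, limma voom (limma 3.58.1) and pools left out.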

Additional observations from a re-analysis of the deposited data

Results flagged for a closer look

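Single pools stood far from the other 3 of their group in 4 of 82 groups of values examined among the clock and clock-related genes, and chance alone sets about 1 group in 20 apart in this way. CIART was at 22.5 CPM in well-fed pool 3, where the nearest other well-fed pool was at 30.2 CPM. KLF9 was at 52.2 CPM in food-restricted pool 3, with the next pool at 34.1 CPM. FBXW11, a ubiquitin ligase subunit, was at 37.9 CPM in food-restricted pool 1, with the next at 46.5 CPM. CUL1, another ligase subunit, was at 106.6 CPM in well-fed pool 1, with the next at 87.1 CPM.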

How the results depend on the processing

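No alternative called any of the 10 clock genes, and CRY1 and CIART kept their sign in all 17, although CRY1 ran from 0.030 without food-restricted pool 3 to 0.27 without food-restricted pool 1. The number of genes called over the whole table was 0 with the replicate block, 6 with the principal component side as a block, 4 with DESeq2, 0 without both food-restricted pools 1 and 3, and 0 to 0 when single pools were left out; the cause was not tested. Replicate numbers did not pair the pools (r of deviations between -0.42 and -0.21), and the replicate block changed no call of a clock gene. Log2 fold changes near 0 changed sign: CRY2 to 0.00031 with size factors of the DESeq2 kind and 0.00031 with DESeq2; NR1D1 to -0.013 with the replicate block, -0.0081 with the side block and -0.013 with limma voom. Without both food-restricted pools 1 and 3, PER2 was at 0.18, PER3 at -0.10, CRY2 at 0.15, NR1D2 at -0.064, NPAS2 at -0.089, RORB at 0.054 and TEF at 0.037. With single pools left out, PER1 ran from -0.045 to 0.19, PER2 from -0.74 to 0.21, PER3 from -0.0071 to 0.23, CRY2 from -0.12 to 0.10, CLOCK from -0.15 to 0.029, NR1D1 from -0.11 to 0.10, NR1D2 from -0.043 to 0.19 and DBP from -0.14 to 0.24. NPAS2 ran from -0.056 to 0.17, RORA from -0.0070 to 0.18, RORB from -0.42 to 0.0018, TEF from -0.089 to 0.0028 and HLF from -1.26 to 0.19. The pairs correlated by r numbered 19 of 21, and 3 to 18 with single pools left out. The scalings moved the median of all genes by less than 0.1. With single pools left out, 0 of the 9 ratios to CLOCK passed the exact permutation test (smallest adjusted p between 0.257 and 0.986). A ratio could not have passed alone after adjustment over the 9 here either, so the count of 0 does not show equal ratios. The 6-gene mean against CLOCK ran from -0.10 to 0.24 with single pools left out.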
